A study of Mus musculus with 6 samples.

Results

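The respiratory chain genes described here are the nuclear genes for the subunits of complexes I to V of the inner mitochondrial membrane, measured in adipose tissue of obese ob/ob and lean ob/+ mice. They were taken from the deposited intensity table by gene symbol: symbols starting with Nduf, Sdha to Sdhd, Uqcr, Cox4 to Cox8 or Atp5, with Cyc1 and Cycs, and without Cox7a1 and Cox8b. The rule found 110 array features of 87 genes among 25876 genes tested, and it used no measured value. By symbol and known role, 71 of the 87 genes were counted as subunits: 36 in complex I, 4 in complex II, 9 in complex III, 10 in complex IV, with Ndufa4 among them, and 12 in complex V. The remaining genes were Cycs, which encodes the mobile carrier cytochrome c, and 15 genes that share a prefix only, are assembly factors or are isoforms known from other tissues. Atp5b, Atp5g3, Atp5h and Ndufa4l2, and the 13 subunits encoded by mitochondrial DNA, were not analysed here.

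The tested tissue was labelled eWAT and came from ob/ob mice, which are homozygous for a leptin mutation and become obese, with 3 samples at 9 weeks of age. The controls were 3 eWAT samples of lean ob/+ mice, which carry the mutation on a single chromosome, also at 9 weeks. Each of 6 two-colour arrays held 1 sample in Cy5 and a pool of ob/+ eWAT RNA in Cy3, with the genetic background C57BLKS/J stated for the pool. A value below is the log2 ratio of a sample to that pool, and a difference is the mean of the ob/ob ratios minus the mean of the ob/+ ratios, so that the pool cancels.

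Whether the samples of a group are separate animals is not stated, and the p-values then cover only the spread among the samples at hand, which may be technical. The labels, which name adipose tissue and ob/ob, were followed where the series' design text names pancreatic islets and db/db mice. Of the adipocyte markers that define the labelled tissue, Adipoq, Plin1 and Fabp4 were measured, and 6 of 7 listed markers had a feature. The median sample intensity of an array lay between 0.11 and 0.15 on the authors' scale, and precision is limited by having 3 arrays per group. Of all genes, 12.1% were lower and 12.4% higher in ob/ob at a limma adjusted p under 0.05. Among the 6132 genes with a mean intensity of at least 1, which hold 71 of the 87 members, these shares were 17.3% and 20.1%.

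Complexes I and II take electrons from NADH and from succinate and hand them to ubiquinone, complex III passes them to cytochrome c, and complex IV passes them to oxygen. Complexes I, III and IV pump protons as they do so, and complex V, the ATP synthase, makes ATP as the protons flow back. White fat cells use this chain for ATP and to sustain lipid synthesis, and its nuclear genes are known targets of nuclear respiratory factor 1, GABP and the estrogen-related receptors, with the coactivator encoded by Ppargc1a.

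Promoters are shown for 3 of the genes that were lower in ob/ob, because their 250 bases before the start hold a site of the kinds just named. They are those of Cox5b, Ndufs3 and Sdhb, the called genes of lowest p with such a match in that window. Letters are from RefSeq, mouse build GRCm38.p6, written 5′ to 3′ on the gene's strand, with the match in capitals. For Cox5b, at chr1:36691237-36691486 on the plus strand, the capitals mark GCGCATG, the core of the nuclear respiratory factor 1 site, starting 51 bases before the start. For Ndufs3, at chr2:90904722-90904971 on the minus strand, they mark CCGGAAG, a site of the ETS factor GABP, starting 27 bases before the start. For Sdhb, at chr4:140961021-140961270 on the plus strand, they mark the nuclear respiratory factor 1 core read on the opposite strand, 53 bases before the start.
Cox5b: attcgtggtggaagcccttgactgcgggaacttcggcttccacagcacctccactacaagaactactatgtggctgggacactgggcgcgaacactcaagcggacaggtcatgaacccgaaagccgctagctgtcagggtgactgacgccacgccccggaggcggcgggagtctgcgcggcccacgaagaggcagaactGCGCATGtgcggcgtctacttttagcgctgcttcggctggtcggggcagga
Ndufs3: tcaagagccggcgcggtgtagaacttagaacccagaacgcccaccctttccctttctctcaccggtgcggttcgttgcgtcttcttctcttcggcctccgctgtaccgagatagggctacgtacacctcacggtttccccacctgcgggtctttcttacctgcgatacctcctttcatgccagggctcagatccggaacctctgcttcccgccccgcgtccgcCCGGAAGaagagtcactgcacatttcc
Sdhb: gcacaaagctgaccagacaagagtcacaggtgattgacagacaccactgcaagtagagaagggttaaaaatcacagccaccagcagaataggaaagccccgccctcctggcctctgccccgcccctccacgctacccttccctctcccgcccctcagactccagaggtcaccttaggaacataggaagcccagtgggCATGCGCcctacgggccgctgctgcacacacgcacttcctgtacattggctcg

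Windows of 300 bases, 250 before and 50 after the start, were searched on both strands for GCGCATG, for CCGGAAG and for AAGGTCA, the core recognised by estrogen-related receptors. The GABP and estrogen-related receptor motifs can overlap by the letters they share at their ends, the nuclear respiratory factor 1 motif can overlap its own reverse complement, and a promoter counted once for each motif. A promoter was found for 72 of the 87 genes, 60 of them subunits. The GCGCATG motif stood in 13 of the 60 subunit promoters, which is 21.7%, against 4.04% of 27025 promoters of all genes. The CCGGAAG motif stood in 14 of them, or 23.3%, against 9.12%, and AAGGTCA in 7, or 11.7%, against 4.66%. Among the subunit genes lower in ob/ob with a promoter, 5 of 11 held at least 1 of the motifs (45.5%), against 19 of 49 of the subunit genes not called lower (38.8%). The AAGGTCA motif was in 0 of those 11 and in 7 of those 49. A match is a description of letters in this window.

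Transcripts of the chain were mostly a little lower in ob/ob tissue. Of the 71 subunit genes, 58 (81.7%) had a negative difference, against 45.4% of all genes tested. Among genes with a mean intensity of at least 1 the negative share was 49.7%. The median difference of the subunit genes was -0.18 on the log2 scale, or 88.2% of the ob/+ level, against 0.00343 over all genes. The differences ran from -0.80 for Ndufb8 to 0.49 for Ndufb5, and 0 of the 87 genes reached a difference of 1 in either direction. In limma, 14 of the 71 subunit genes were lower, which is 19.7%, against 12.1% of all genes and 17.3% of genes with a mean intensity of at least 1. None was higher, which is 0%, against 12.4% and 20.1%. This count leaves out the 5 isoforms set apart, of which Cox6a2 was higher and 4 were not called. It also leaves out 2 isoforms that the rule excludes. Of these, Cox8b was higher by 1.16 (limma adjusted p = 0.0285), and Cox7a1, at 0.77, did not pass. At an unadjusted p under 0.05, 28 subunit genes were lower and 2, Ndufb5 and Uqcrq, were higher, where 18.5% of all genes were lower and 19% higher, and 25.9% and 29.3% of the brighter genes. Rounding of the deposited intensities can move the difference of Uqcrq by more than its size. In 33 subunit genes (46.5%) all ob/ob values lay below all ob/+ values, against 19.8% of all genes and 28% of the brighter genes. Only Ndufb5 (1.41%) lay wholly above, against 20.2% and 31.5%. Among the 63 subunit genes with a mean intensity of at least 1, 14 were lower and 33 lay wholly below. In bulk tissue, fewer cells of a type and less RNA per cell cannot be told apart.

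**Figure D1:**
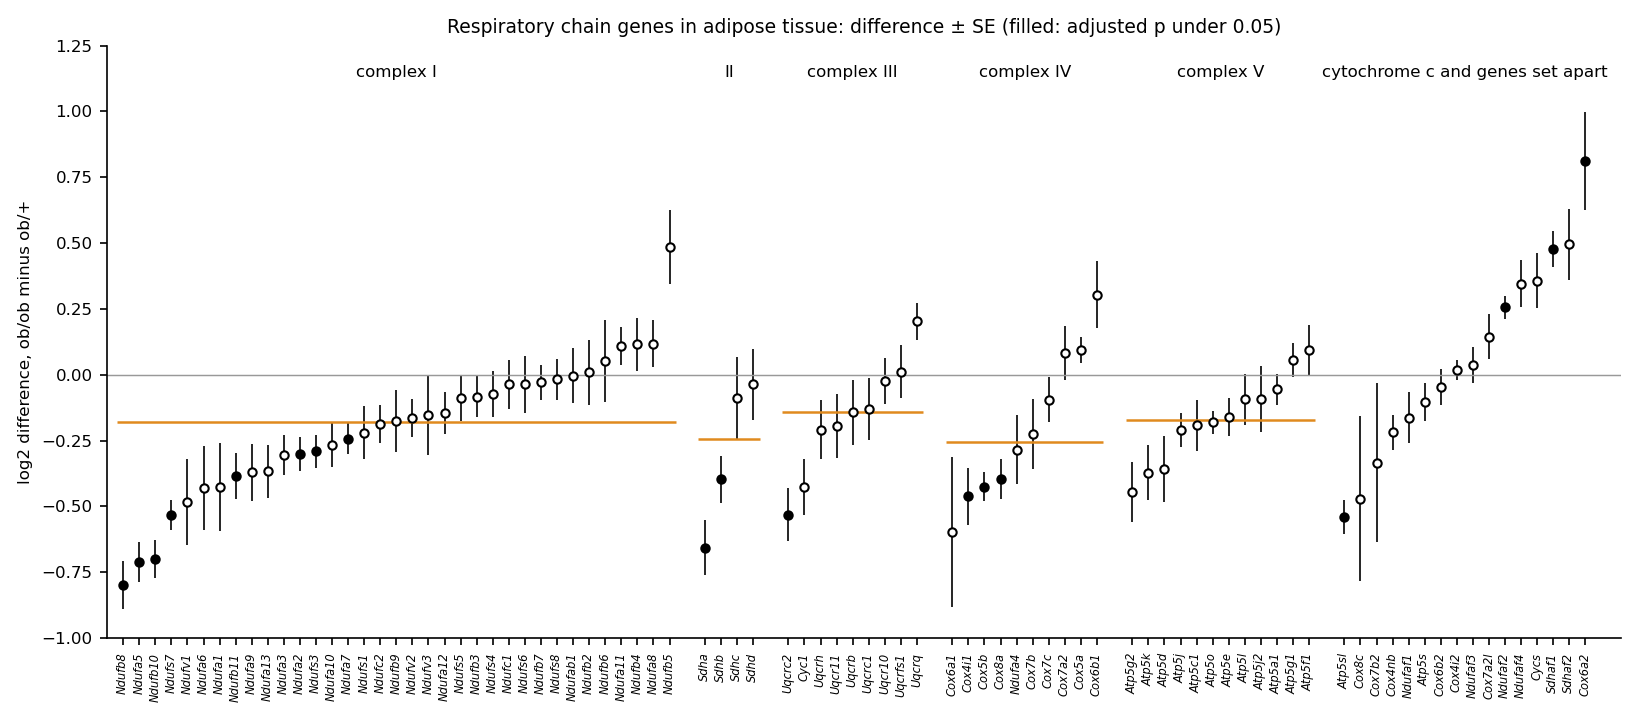
Difference between ob/ob and ob/+ on the log2 scale (vertical axis) for the 87 genes except 1 that is not reported here, with the limma SE as the bar, ordered within complexes I to V and then cytochrome c with the genes set apart. Filled points have an adjusted p under 0.05 and orange lines are the medians of the complexes; most subunits sit below 0, and the filled points above 0 are all among the genes set apart.

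Counting all 87 genes, 15 were lower, 3 were higher and 69 were not called, or 17.2% and 3.45% lower and higher, against 12.1% and 12.4% of all genes. The 3 higher genes were among those set apart and not counted as subunits. Sdhaf1 and Ndufaf2 encode assembly factors, and Cox6a2 encodes the muscle isoform of a complex IV subunit. The count of 15 lower genes dropped to 6 on leaving out replicate 2 or 3 of ob/ob, and to 7 on leaving out replicate 2 or 3 of ob/+. The count of 3 higher genes was 0 without ob/+ replicate 1, 1 without ob/ob replicate 3 or ob/+ replicate 3, and 5 without ob/+ replicate 2. After quantile normalization of the log ratios 1 gene was lower and 0 were higher.

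Arrays within a group differed in how far the chain was shifted. The median log2 ratio of the 71 subunit genes to the pool was -0.09, -0.18 and -0.18 on the ob/ob arrays, against -0.06, 0.10 and 0.07 on the ob/+ arrays. The groups did not overlap, but ob/+ replicate 1 lay close to ob/ob replicate 1. On the ob/ob arrays 45, 55 and 54 of the 71 genes lay below the pool, against 61, 11 and 19 on the ob/+ arrays, so ob/+ replicate 1 had the most genes below it. Most of those departures on ob/+ replicate 1 were small, as its median shows. For all genes with a mean intensity of at least 1 the array medians were 0.01, 0.01 and 0.02 in ob/ob, against 0.01, 0.01 and -0.04 in ob/+.

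**Figure D2:**
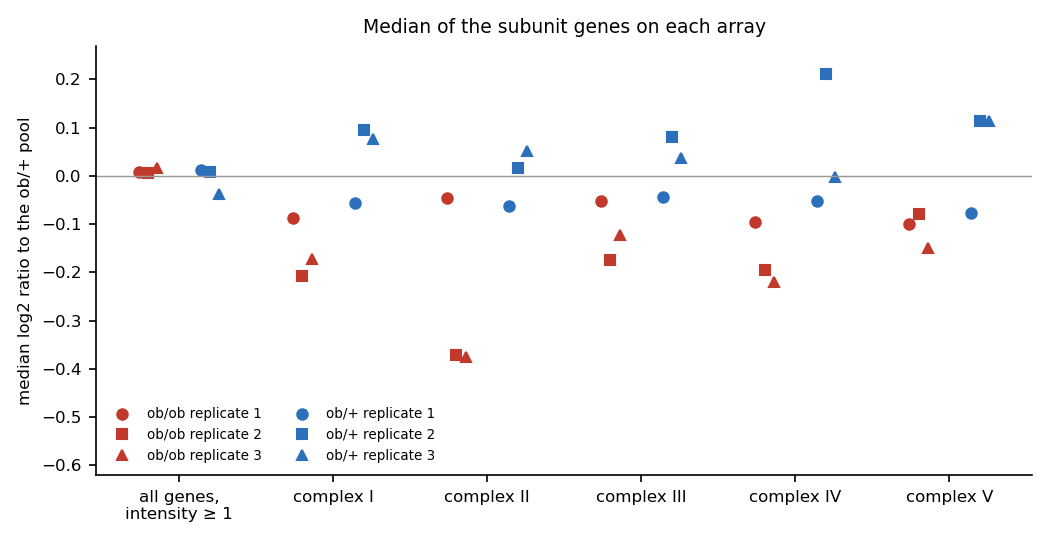
Median log2 ratio to the ob/+ pool (vertical axis) on each array, for all genes with a mean intensity of at least 1 and for the subunits of each complex; red marks are ob/ob arrays, blue marks ob/+ arrays, and the shape gives the replicate number. Replicate 1 is the highest ob/ob array for complexes I to IV, and for complex II it lies above ob/+ replicate 1, so that the groups overlap there.

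The pool channel holds the same RNA on every array and was compared as a check. With each array centred on its median, the pool intensity of the 71 subunit genes was higher on ob/ob than on ob/+ arrays by a median of 0.20 on the log2 scale. It was 0.17 for all genes with a mean intensity of at least 1 and 0.09 for all genes tested. In the sample channel alone the subunit median was 0.09, against 0.26 for those brighter genes and 0.13 for all genes tested. Relative to the brighter genes, the subunits thus differed by -0.17 in the sample channel and by 0.04 in the pool channel. Relative to all genes tested, the subunits were lower in the sample channel and higher in the pool channel, with the larger gap in the pool channel. Which channel holds the difference thus depends on the genes compared. The ratio to the pool, used below except in sums of marker intensities, removes what both channels share.

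Complex I had 8 of 36 subunit genes lower (22.2%) and 0 higher in limma, against 12.1% and 12.4% of all genes, and 16 lower and 1 higher at an unadjusted p under 0.05, where 18.5% and 19% of all genes were. Its median difference was -0.18, and 30 of the 36 genes were negative. The 3 with the lowest differences, Ndufb8, Ndufa5 and Ndufb10, are accessory subunits, which stabilise the complex and carry no redox centre. Ndufb8, of the membrane arm, had log2 ratios of -0.67, -0.81 and -0.79 in ob/ob, against -0.13, 0.09 and 0.17 in ob/+. Ndufa5, of the matrix arm, had -0.68, -0.59 and -0.61 in ob/ob, against -0.07, 0.17 and 0.16 in ob/+. Ndufb10, a membrane arm subunit, had -0.67, -0.49 and -0.60 in ob/ob, against 0.14, 0.00 and 0.20 in ob/+. In all of these genes the ob/ob values lay together and well clear of the ob/+ values. Ndufb8 fell by 0.80 ± 0.09 (SE, n = 3 per group), to 57.4% of its ob/+ level, with a limma adjusted p of 0.00736. Ndufa5 fell by 0.71 ± 0.08, to 61.1% (0.00658), and Ndufb10 by 0.70 ± 0.07, to 61.6% (0.00602). These calls held whichever 1 of the 6 arrays was left out. After quantile normalization of the log ratios Ndufb10 still passed (limma adjusted p = 0.0494), while Ndufb8 (0.231) and Ndufa5 (0.175) did not.

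The core subunits of complex I encoded in the nucleus bind NADH and carry the electrons through flavin and iron-sulfur clusters to ubiquinone. Of their 7 genes, 2 were lower in limma, Ndufs7 and Ndufs3, which is 28.6%. The shares lower were 12.1% of all genes and 17.3% of genes with a mean intensity of at least 1. Ndufs7, which holds the last iron-sulfur cluster before ubiquinone, had log2 ratios of -0.51, -0.57 and -0.40 in ob/ob, against -0.01, 0.03 and 0.10 in ob/+. The groups were widely separated, and Ndufs7 fell by 0.53 ± 0.06, to 69.2% of ob/+ (limma adjusted p = 0.00655), with the call kept whichever array was left out. Ndufs3, a structural core subunit of the matrix arm, had -0.13, -0.27 and -0.30 in ob/ob, against -0.01, 0.07 and 0.12 in ob/+. It fell by 0.29 ± 0.06 (adjusted p = 0.0339), and the call was lost whenever an array other than ob/ob replicate 1 was left out (adjusted p up to 0.103).

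Other core genes described here did not pass. Ndufv1, which binds the flavin and NADH, had -0.20, -0.80 and -0.55 in ob/ob, against 0.00, 0.00 and -0.09 in ob/+. Its ob/ob arrays were widely spread, and the difference of -0.48 ± 0.16 had an adjusted p of 0.11. Ndufs1, the largest subunit with several iron-sulfur clusters, had a difference of -0.22 ± 0.10 and Ndufv2, another iron-sulfur protein, -0.16 ± 0.07. In both, all ob/ob values lay below all ob/+ values, narrowly so for Ndufv2. Ndufs8, which carries iron-sulfur clusters next to Ndufs7, stood at -0.02 ± 0.08, and its groups overlapped.

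The accessory subunits fall into families by symbol. The 13 Ndufa genes of complex I had a median of -0.30, with 3 lower and 9 wholly below, while the 10 Ndufb genes, all of the membrane arm, had a median of -0.06, with 3 lower, 3 wholly below and 1 wholly above. Of all genes, 12.1% were lower, 19.8% lay wholly below and 20.2% wholly above, and 17.3%, 28% and 31.5% of the brighter genes did, so the Ndufb share wholly below was near that of the brighter genes. The difference between the families was not tested. Ndufa2, Ndufa7 and Ndufb11 were the other called genes, named after their values were seen. Ndufb11, of the membrane arm, fell by 0.38 ± 0.09 (adjusted p = 0.0417), Ndufa2 by 0.30 ± 0.07 (0.0355) and Ndufa7 by 0.24 ± 0.06 (0.0484). The calls of Ndufa2 and Ndufb11 were lost whenever an array other than ob/+ replicate 1 was left out (adjusted p up to 0.112 and 0.133), and that of Ndufa7 whichever array was left out (up to 0.127). The 4 accessory genes Ndufs4, Ndufs5, Ndufs6 and Ndufv3 had a median of -0.08, and the groups overlapped in each of them.

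Ndufb5, a membrane arm subunit, went the other way. It had 0.70, 0.36 and 0.37 in ob/ob, against -0.12, 0.20 and -0.10 in ob/+. All ob/ob values were the higher ones, but the difference of 0.49 ± 0.14 did not pass (adjusted p = 0.0755). Other complex I subunits with positive differences were Ndufb4 and Ndufa8 at 0.12, Ndufa11 at 0.11, Ndufb6 at 0.05 and Ndufb2 at 0.01, and in each of them the groups overlapped.

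Complex II is succinate dehydrogenase. Its catalytic subunits Sdha and Sdhb were lower, and the membrane anchors Sdhc and Sdhd were not called, so that 2 of 4 genes (50%) were lower, against 12.1% of all genes. Sdha, the flavoprotein that oxidises succinate, had log2 ratios of -0.51, -0.70 and -0.73 in ob/ob, against -0.08, -0.08 and 0.19 in ob/+. Sdhb, the iron-sulfur subunit, had -0.22, -0.48 and -0.51 in ob/ob, against -0.03, 0.00 and 0.01 in ob/+. Both genes were lower on every ob/ob array than on any ob/+ array. Sdha fell by 0.66 ± 0.10 (SE), to 63.4% of ob/+, with a limma adjusted p of 0.0163, and the call was lost without ob/ob replicate 2 or 3 (up to 0.0665). Sdhb fell by 0.40 ± 0.09, to 75.9%, with an adjusted p of 0.0372, and the call was lost whenever an array other than ob/ob replicate 1 was left out (up to 0.118). A dimmer feature of Sdha, at a mean intensity of 0.0675, had a difference of -0.25 and did not pass.

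The anchors showed 1 array apart. Sdhc had 0.26, -0.27 and -0.21 in ob/ob, against -0.07, 0.03 and 0.09 in ob/+. Sdhd had 0.13, -0.18 and -0.24 in ob/ob, against -0.05, 0.09 and -0.22 in ob/+. In both, ob/ob replicate 1 was the highest of all 6 arrays and the groups overlapped. The differences were -0.09 ± 0.16 for Sdhc and -0.04 ± 0.13 for Sdhd (adjusted p = 0.743 and 0.909). Without ob/ob replicate 1 the difference of Sdhc was -0.25 (adjusted p = 0.0755) and that of Sdhd -0.15 (0.42), and whether the anchors differ from the catalytic subunits was not tested.

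Assembly factors of complex II had positive differences, where its catalytic subunits had negative ones. Sdhaf1 and Sdhaf3 help to place iron-sulfur clusters in Sdhb, Sdhaf2 attaches the flavin to Sdha, and Sdhaf4 holds the flavinated Sdha for assembly. Sdhaf3, listed as Acn9, had 1.46, 1.51 and 1.35 in ob/ob, against 0.00, 0.36 and -0.26 in ob/+. Sdhaf4, listed as 1110058L19Rik, had 0.76, 0.62 and 0.64 in ob/ob, against -0.09, 0.28 and -0.15 in ob/+. Sdhaf1 had 0.56, 0.35 and 0.53 in ob/ob, against -0.02, -0.02 and 0.04 in ob/+. In these genes every ob/ob value was above every ob/+ value. Sdhaf3 rose by 1.41 ± 0.17, or 2.65-fold, with a limma adjusted p of 0.00861, and the call held whichever array was left out. Sdhaf4 rose by 0.66 ± 0.13, or 1.58-fold (adjusted p = 0.0291), with the call lost whenever an array other than ob/+ replicate 2 was left out (up to 0.0987). Sdhaf1 rose by 0.48 ± 0.07, or 1.39-fold (adjusted p = 0.012), with the call lost without ob/ob replicate 3 or ob/+ replicate 1 (up to 0.0528). Sdhaf2 had a difference of 0.50 ± 0.13 that did not pass (adjusted p = 0.0639), though its groups did not overlap. Sdhaf3 had a mean intensity of 0.177, where the rounding of the deposited intensities in steps of 0.01 can move its difference by up to 0.19.

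**Figure D3:**
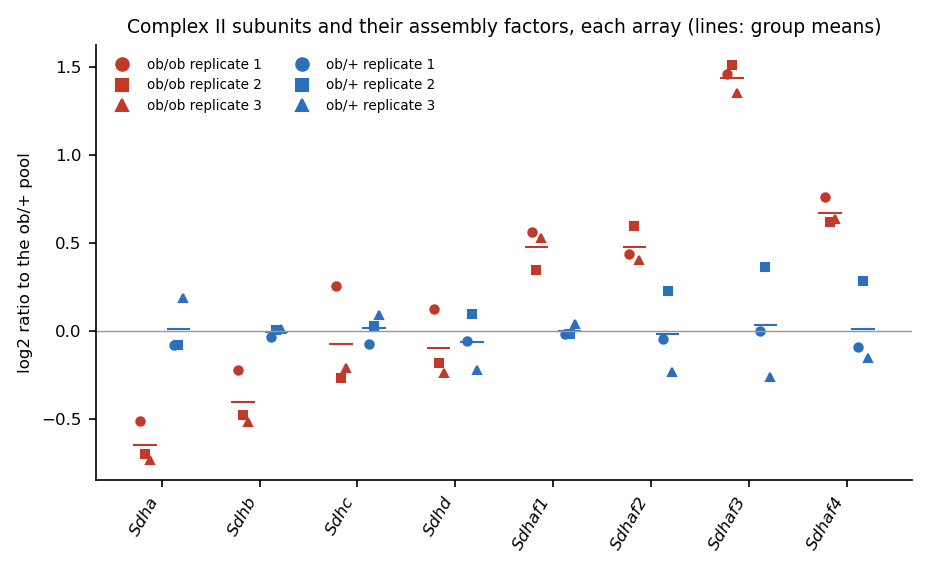
Log2 ratios to the ob/+ pool (vertical axis) of the 4 subunit genes of complex II and its 4 assembly factors on each array; red marks are ob/ob and stand left of the blue ob/+ marks, the shape gives the replicate number, and short lines are group means. Sdha and Sdhb lie below 0 on all ob/ob arrays, Sdhc and Sdhd overlap between the groups, and all 4 assembly factors lie above the ob/+ values.

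Complex III had 1 of 9 subunit genes lower (11.1%), against 12.1% of all genes, and 0 higher in limma, with 2 lower and 1 higher at an unadjusted p under 0.05 (18.5% and 19% of all genes). Its median difference was -0.14. Uqcrc2, a core protein of the matrix side, had log2 ratios of -0.35, -0.50 and -0.68 in ob/ob, against -0.04, -0.03 and 0.13 in ob/+. The groups were apart, and Uqcrc2 fell by 0.53 ± 0.10, to 69.2% of ob/+ (limma adjusted p = 0.025). Its other feature gave -0.47 and passed too (adjusted p = 0.0465), while the call of the brighter one was lost whenever an array other than ob/ob replicate 1 was left out (up to 0.0826). Cyc1, the cytochrome that hands electrons to cytochrome c, had -0.22, -0.61 and -0.46 in ob/ob, against 0.01, -0.05 and 0.04 in ob/+. Its groups did not overlap, but the difference of -0.43 ± 0.11 missed the threshold (adjusted p = 0.0522). Uqcrc1, the partner core protein of Uqcrc2, had -0.13 ± 0.12, with overlapping groups.

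The 2 features of Uqcrfs1, the Rieske iron-sulfur protein, disagreed. The brighter had 0.23, -0.06 and -0.09 in ob/ob, against 0.03, 0.08 and -0.06 in ob/+. The dimmer had -0.38, -0.28 and -0.33 in ob/ob, against 0.12, -0.03 and 0.21 in ob/+. The brighter overlapped between the groups, with a difference of 0.01 ± 0.10, whereas the dimmer differed by -0.43 ± 0.07 (limma adjusted p = 0.0181), so no direction is given for Uqcrfs1. The small subunits Uqcrb, Uqcrh, Uqcr10 and Uqcr11 had differences of -0.14, -0.21, -0.02 and -0.19. Uqcrq, at a mean intensity of 0.0917, had 0.20 with overlapping groups, where rounding can move the difference by up to 0.316. None of these 5 passed the test.

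Cycs, which encodes the carrier between complexes III and IV, had 0.42, 0.48 and 0.25 in ob/ob, against -0.16, 0.15 and 0.08 in ob/+. All ob/ob values were above the ob/+ values, as in only Ndufb5 among the 71 subunit genes, but the difference of 0.36 ± 0.11 did not pass (adjusted p = 0.0802).

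Complex IV, cytochrome c oxidase, had 3 of 10 subunit genes lower (30%), against 12.1% of all genes, and 0 higher, with 3 lower and 0 higher also at an unadjusted p under 0.05 (18.5% and 19% of all genes). Its median difference was -0.26. These counts leave out the isoforms set apart, with Cox6a2 among them, and Cox7a1 and Cox8b, which the rule excludes. Cox6a2 and Cox8b were called higher. All of the 10 genes counted encode small subunits around the catalytic core, which mitochondrial DNA encodes. Cox5b, a zinc-binding matrix subunit whose promoter is shown above, had log2 ratios of -0.31, -0.43 and -0.41 in ob/ob, against -0.03, 0.05 and 0.11 in ob/+. Cox4i1, the subunit at which ATP is known to act on the enzyme, had -0.28, -0.49 and -0.32 in ob/ob, against -0.10, 0.21 and 0.18 in ob/+. Cox8a, a small membrane subunit, had -0.26, -0.52 and -0.44 in ob/ob, against -0.04, 0.04 and -0.02 in ob/+. The groups were apart in each gene. Cox5b fell by 0.43 ± 0.05 (SE), to 74.4% of ob/+, with a limma adjusted p of 0.00969, and its call held whichever array was left out. Cox8a fell by 0.40 ± 0.08 (0.0262), with the call lost whenever an array other than ob/ob replicate 1 was left out (up to 0.095), and Cox4i1 fell by 0.46 ± 0.11 (0.0439), with the call lost whenever an array other than ob/+ replicate 1 was left out (up to 0.137).

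Other complex IV genes were not called. Cox6a1 had the lowest difference of the complex, -0.60, with values of 0.04, -0.73 and -0.61 in ob/ob, against 0.03, -0.11 and 0.56 in ob/+. Its arrays were scattered in both groups, giving an SE of 0.29 and an adjusted p of 0.223. Ndufa4, first assigned to complex I and now counted in complex IV, had -0.10, -0.37 and -0.26 in ob/ob, against -0.06, 0.28 and -0.09 in ob/+, and did not pass at -0.29 ± 0.13. Cox5a, the partner matrix subunit of Cox5b, stood at 0.09 ± 0.05, and Cox6b1, on the side of the intermembrane space, at 0.30 ± 0.13. Cox7a2, Cox7b and Cox7c had 0.08, -0.22 and -0.09, and the groups overlapped in each.

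Isoforms of complex IV known from other tissues were also on the array. Cox6a2, the heart and muscle form of Cox6a1, had 0.585, 1.0996 and 1.193 in ob/ob, against 0.00, 0.22 and 0.22 in ob/+. It rose by 0.81 ± 0.19, or 1.75-fold (limma adjusted p = 0.041), at a mean intensity of 0.0858, where rounding alone can move the difference by up to 0.366. The call of Cox6a2 was lost whenever an array other than ob/ob replicate 1 was left out (up to 0.129). Of 8 skeletal muscle markers, 2 were higher and 1 lower, and 4, with Myh4 and Actn3 among them, had a mean intensity below 0.1. The summed intensity of the 8 was 4.32 to 4.82 in ob/ob, against 1.18 to 2.55 in ob/+. Pvalb (mean intensity 0.605) was higher by 4.58 and Myh4 by 0.63, while Actn3 was lower, at -0.82. Acta1, the brightest, had 0.57, Tnnc2 -1.77, Tnnt3 0.19, Mylpf -0.11 and Ckm 0.01, and none of these was called. The markers thus did not move together, and the part of each in the sum was not tested. Cox4i2, the lung and hypoxia form of Cox4i1, had a difference of 0.02 ± 0.04, and the testis forms Cox6b2, Cox7b2 and Cox8c had -0.05, -0.33 and -0.47 with overlapping groups. Cox7b2 and Cox8c had mean intensities of 0.02 and 0.04, where the step of 0.01 is coarse.

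Complex V, the ATP synthase, had 0 of 12 subunit genes lower and 0 higher in limma (0%, against 12.1% and 12.4% of all genes), with 5 lower and 0 higher at an unadjusted p under 0.05 (18.5% and 19% of all genes). Its median difference was -0.17, and 10 of 12 genes were negative, against a median of -0.18 in complex I. Atp5g2, which encodes the proton-carrying ring subunit, had -0.51, -0.44 and -0.25 in ob/ob, against -0.11, 0.02 and 0.22 in ob/+. Atp5k, a membrane subunit that links synthase dimers, had -0.32, -0.35 and -0.24 in ob/ob, against -0.12, 0.08 and 0.25 in ob/+. Both genes lay lower on every ob/ob array than on any ob/+ array. The difference of Atp5g2 was -0.44 ± 0.11 (adjusted p = 0.0551) and that of Atp5k -0.37 ± 0.11 (0.0709). Second features of these genes gave -0.38 and -0.36 and did not pass.

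Atp5g1 encodes the same mature ring peptide as Atp5g2 and had 0.00, 0.16 and 0.10 in ob/ob, against -0.04, 0.12 and 0.01 in ob/+. Its groups overlapped, with a difference of 0.06 ± 0.06. Atp5a1, the alpha subunit of the catalytic head, had 0.00, -0.07 and -0.09 in ob/ob, against -0.09, 0.10 and -0.02 in ob/+, a difference of -0.06 ± 0.06. Atp5c1, the rotating gamma subunit, had -0.19 ± 0.10, and Atp5d, the delta subunit, -0.36 ± 0.13. Atp5o, part of the stalk that holds the head still, had -0.06, 0.02 and -0.01 in ob/ob, against 0.13 and 0.20 on the ob/+ arrays with a value. Its difference was -0.18 ± 0.04 (adjusted p = 0.0682, with 1 ob/+ array missing from the fit). Atp5f1, now named Atp5pb and part of the same stalk, had a positive difference of 0.09 ± 0.10.

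**Figure D4:**
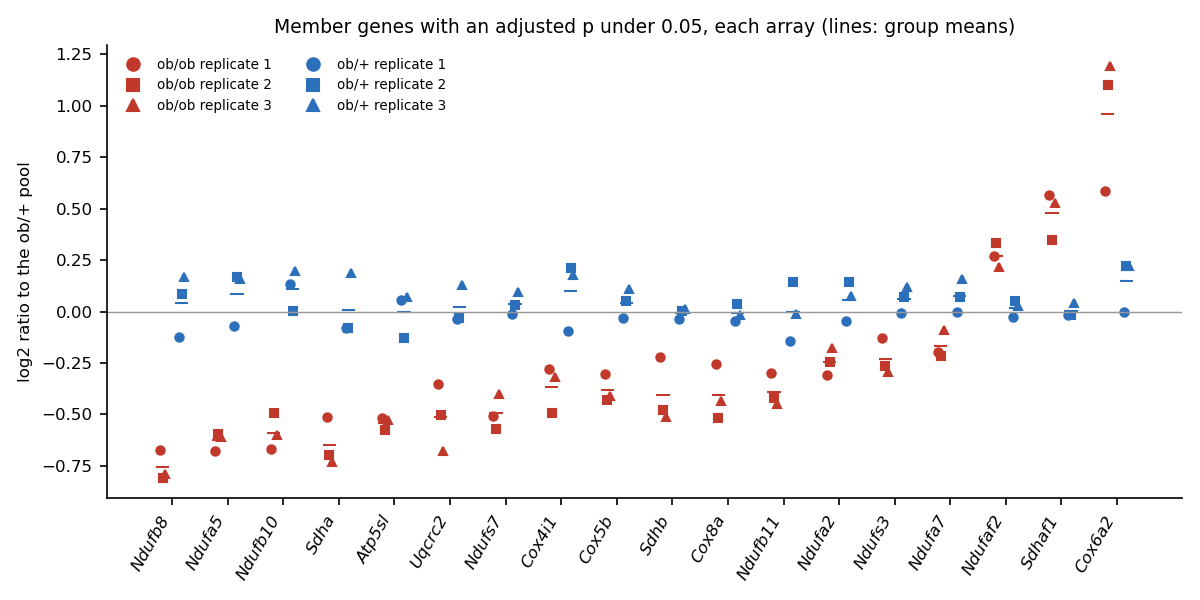
Log2 ratios to the ob/+ pool (vertical axis) on each array for the 18 genes with a limma adjusted p under 0.05; red marks are ob/ob and stand left of the blue ob/+ marks, the shape gives the replicate number, and short lines are group means. The 15 lower genes lie below 0 on all ob/ob arrays, and the groups overlap in none of the 18 genes.

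Genes that share a prefix with the subunits gave a mixed picture. Atp5sl, now named Dmac2, encodes a complex I assembly factor and was named after its values were seen. It had -0.52, -0.57 and -0.53 in ob/ob, against 0.06, -0.13 and 0.07 in ob/+. The ob/ob values were close together and below all ob/+ values, and Atp5sl fell by 0.54 ± 0.06 (limma adjusted p = 0.00811), whichever array was left out. Ndufaf2, a complex I assembly factor, had 0.27, 0.33 and 0.21 in ob/ob, against -0.03, 0.05 and 0.03 in ob/+. Ndufaf2 rose by 0.26 ± 0.04 (adjusted p = 0.0182), with the call lost without ob/+ replicate 1 or 3 (up to 0.0618). Ndufaf4 had 0.35 ± 0.09 (0.0557), while Ndufaf1 and Ndufaf3 had -0.16 and 0.04. Cox7a2l, which joins complexes III and IV in supercomplexes, had a difference of 0.14 ± 0.09. Cox4nb, now named Emc8 and unrelated to the chain, had -0.22 ± 0.07, and the features of Atp5s, now named Dmac2l, gave -0.10 and, for the one at a mean intensity of 0.0975, -1.101.

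Of 20 member genes with several features, 16 had all of them on 1 side of 0. For Cox5b, Ndufs3, Sdha and Uqcrc2 the brightest feature was called lower, and for 1 of these 4, Uqcrc2, another feature passed as well. For Atp5s and Uqcrfs1 only a dimmer feature passed.

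Of 40 listed assembly factors of the chain, which include the 6 Ndufaf and Sdhaf genes above but not Atp5sl, Atp5s or Cox7a2l, 7 were higher, 1 was lower and 32 were not called, with a median difference of 0.03, against 12.4% higher and 12.1% lower of all genes. Besides Sdhaf1, Sdhaf3, Sdhaf4 and Ndufaf2, the higher ones were Cox19, Cox10 and Acad9. Cox10, which makes the heme A precursor for complex IV, had 0.38, 0.42 and 0.44 in ob/ob, against -0.05, 0.11 and 0.02 in ob/+. Surf1, an assembly factor of complex IV, had -0.32, -0.42 and -0.38 in ob/ob, against -0.04, 0.03 and -0.02 in ob/+. Both were clear of the ob/+ arrays, in opposite directions. Cox10 rose by 0.38 ± 0.05 (adjusted p = 0.00954) and Surf1 fell by 0.36 ± 0.04 (0.00699), whichever array was left out. Cox19, which serves copper delivery to complex IV, rose by 0.73 ± 0.16 (0.0375), and Acad9, a complex I assembly factor, by 0.36 ± 0.07 (0.0261). The call of Cox19 was lost whenever an array other than ob/+ replicate 3 was left out (up to 0.118) and that of Acad9 whenever one other than ob/+ replicate 2 was (up to 0.0895).

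Of 13 transcriptional regulators of the chain and of mitochondrial DNA, 3 were lower, 3 were higher and 7 were not called, against 12.1% lower and 12.4% higher of all genes. Ppargc1a, which encodes the coactivator PGC-1alpha, had -1.87, -2.05 and -2.34 in ob/ob, against -0.17, -0.14 and 0.28 in ob/+. Esrra, the estrogen-related receptor alpha, had 0.48, 0.48 and 0.66 in ob/ob, against -0.06, 0.05 and -0.01 in ob/+. Tfam, which packages and transcribes mitochondrial DNA, had -0.29, -0.24 and -0.41 in ob/ob, against -0.02, -0.01 and -0.01 in ob/+. In each the groups were apart, with Esrra the higher one in ob/ob. Ppargc1a fell by 2.07 ± 0.18, to 23.8% of ob/+ (limma adjusted p = 0.0046), a far larger difference on the log2 scale than that of any chain gene, and Esrra rose by 0.55 ± 0.06 (0.00811), both whichever array was left out. Tfam fell by 0.30 ± 0.05 (0.0189), with the call lost without any 1 ob/+ array (up to 0.067). Tfb2m, a factor for mitochondrial transcription, fell by 0.35 ± 0.09 (0.0491), with the call lost whenever an array other than ob/ob replicate 3 was left out (up to 0.136). Pprc1, a coactivator related to Ppargc1a, rose by 0.73 ± 0.13 (0.021), and Gabpb1, the partner of the GABP DNA-binding subunit, rose by 0.53 ± 0.13 (0.0494). The calls of Pprc1 and Gabpb1 were lost whenever an array other than ob/ob replicate 1 was left out (up to 0.0798 and 0.15). Ppargc1b had a difference of -1.04 ± 0.30 that did not pass (0.0756), and Nrf1 and Gabpa, whose sites were searched in the promoters, had 0.14 and 0.12 and did not pass.

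Markers of several cell types moved with genotype. The shares over all genes were 12.4% higher and 12.1% lower, and 20.1% and 17.3% for genes with a mean intensity of at least 1. The sums given here are of sample intensities, not of ratios to the pool, and they follow the brightest markers of a list. Of 8 macrophage markers, 7 were higher, and their summed intensity was 70.8 to 129.6 in ob/ob, against 33.2 to 37.6 in ob/+. Of 6 adipocyte markers, Lep was higher and Adipoq and Fabp4 were lower, with sums of 28.6 to 34.9 in ob/ob, against 50.1 to 60.4 in ob/+. Adipoq was the brightest, at a mean intensity of 24.8. Plin1 (-0.56), Lipe (-0.42) and Pparg (0.07) were not called, and their groups overlapped. Of 8 markers of epididymal and other epithelium, 6 were lower, with sums of 0.64 to 0.84 in ob/ob, against 9.5 to 33 in ob/+. The brightest was Crisp1 (mean intensity 9.14), at 0.744% of its ob/+ level. Adam7 ran from -3.12 to 1.46 among the ob/+ arrays and was not called. Of 4 mesothelial markers 1, Krt19, was lower, with sums of 2.41 to 6.28 in ob/ob, against 7.81 to 8.68 in ob/+. The brightest of them, Msln (mean intensity 4.87), was not called. Of 6 brown or beige adipocyte markers, 2 were higher, Cox8b and Dio2. The sums were 2.97 to 4.02 in ob/ob, against 2.04 to 2.9 in ob/+. Cox8b was the brightest of these markers, at a mean intensity of 1.35, and their defining gene Ucp1 had 0.0458. Ppara (-0.63) and Cidea (-0.28) had negative differences and Cox7a1 (0.77) a positive one, and none of them passed. None of 4 endothelial markers was called, with sums of 4.66 to 5.48 in ob/ob, against 5.91 to 7.55 in ob/+. Kdr, at a mean intensity of 5.865, was by far the brightest of them and differed by -0.44. Tek had -0.18, while Pecam1 and Cdh5 had 0.08 and 0.09. The part of these cell types in the lower level of the chain genes was not tested.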

How the data were processed

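Total RNA of 3 ob/ob and 3 ob/+ eWAT samples was extracted with Trizol and amplified, per the labels' protocols. Scans were processed in Agilent Feature Extraction, version 8.5.1.1, according to the submitters' processing notes. The authors deposited a normalized linear intensity of the sample and of the pool for each feature and array, per the file headers, in steps of 0.01 for 97.45% of values. They also deposited log10 ratios of sample to pool and a p-value per feature and array, and these 6 p-value columns were left unassigned and unused. The header gives the pool as 3 samples and calls the controls wt. How background and scaling were handled is not given in the sources used here. Table columns could be assigned to groups only, so values by replicate come from the log10 ratios, turned into log2, whose fit differed by at most 0.0011 for the members.

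Log2 of sample over pool intensity was modelled in limma 3.58.1 (R 4.3.3, lmFit and eBayes, default prior, prior degrees of freedom 0.86) on 39407 of 39507 features with values on at least 2 arrays per group. The test was two-sided, with Benjamini-Hochberg adjustment over all features at 0.05. The fit was also run on simulated data with independent noise for each feature. Those data hold no shift shared across an array, so that run does not test the calls given here. The smallest exact permutation p of 3 against 3 is 0.1. The brightest feature stood for a gene. The text names catalytic and core subunits, paralogue families, members called higher and, per complex, up to 4 called genes of lowest p, and says where a name falls outside this rule. A single gene that the rule covers enters the counts and medians and is not reported here by itself. The members, lists and motifs were chosen with earlier results of these data known. All 87 genes matched the RefSeq gene table. Same-numbered arrays of the groups deviated together by r = 0.062, -0.062 and 0.003 across features, so numbers were not used as pairs. Alternatives changed the normalization, channel, filter, prior, weights, threshold and arrays. Python 3.11.15 and matplotlib 3.10.9 drew the plots.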

Additional observations from a re-analysis of the deposited data

How the results depend on the processing

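The 15 lower genes all kept a negative difference under the alternatives run, except that 13 of 15 did with the sample channel alone and 14 of 15 by the dimmest feature of a gene, where that of Cox5b was at 0. Whether they passed the test depended on the arrays and the scaling. Leaving out 1 array gave 6 to 15 lower and 0 to 5 higher genes, against 15 and 3, and a median difference of complex III of -0.26 to -0.12, against -0.14. Quantile normalization of the log ratios left 1 lower gene, Ndufb10, and 0 higher. The sample channel alone gave 0 lower and 4 higher genes, and medians of 0.0725, -0.0401, 0.124, -0.0438 and 0.107 for complexes I to V. There the brighter genes shifted by 0.26, as given above, and the cause was not tested. Higher genes numbered 6 without features below a mean intensity of 0.1, without the dimmest features by rank and with an intensity trend and robust prior, where lower genes numbered 22, 21 and 16. At an adjusted p of 0.01, 6 genes were lower and 0 higher, and at 0.1, 25 and 7. With factors and isoforms left in the complex of their prefix, the median of complex II was -0.0629. With the replicate number as a block, 4 genes were lower and 1 higher, and the samples share only a number.

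Of the comparisons of single named genes with an alternative, 527 kept direction and side of the threshold, 77 no longer passed, 13 newly passed and 30 changed sign. With the sample channel alone the sign changed for Ndufs3, at 0.0722 (adjusted p = 0.788), and for these genes that were not called in either fit: Ndufs1 at 0.117, Ndufs8 at 0.236, Ndufv2 at 0.0913, Sdhc at 0.233, Sdhd at 0.141, Uqcrc1 at 0.124, Atp5a1 at 0.238, Atp5c1 at 0.0262 and Atp5o at 0.105. After quantile normalization it changed for Sdhd at 0.0369, Uqcrfs1 at -0.0397, Cox5a at -0.0311 and Cox4i2 at -0.054, and with array weights for Ndufs8 at 0.0121 and Uqcrfs1 at -0.0318. By the mean over features Ndufs8 had 0.0516 and Uqcrfs1 -0.209 (adjusted p = 0.0361), and by the dimmest feature 0.121 and -0.429 (0.0181). Leaving out 1 array moved Ndufs8 between -0.0751 and 0.0533, Sdhc between -0.254 and 0.00703, Sdhd between -0.149 and 0.0409, Uqcrfs1 between -0.0884 and 0.0695, Cox4i2 between -0.0108 and 0.0459, and Cox6b2 between -0.0966 and 0.0127, none of them called. Rounding limits features below a mean intensity of 0.1, and 3 arrays per group limit all calls.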
